A study of Mus musculus with 40 samples.

Results

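The translation initiation factor genes were the protein-coding mouse genes of the GENCODE M21 annotation whose symbol begins with Eif and a digit. The rule gave 55 genes of the 55487 mouse gene entries counted, and all 55 had an entry. Of these, 53 passed a filter on low counts and were tested. The other 2, Eif2ak2 and Eif4ebp3, were counted in few embryos and are given as counts. The genes were described across single mouse embryos that had received siRNA against Rif1 (siRif1) or control siRNA (siCon).

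Initiation factors bring the small ribosomal subunit, the initiator tRNA and a capped mRNA together and set the ribosome on a start codon. eIF4E binds the cap, eIF4G joins it to the eIF4A helicase and to eIF3, and eIF2 carries the initiator tRNA, for which the exchange factor eIF2B recharges it with GTP. Kinases of eIF2alpha and eIF4E-binding repressors lower initiation. In the early mouse embryo a large store of maternal mRNA is read and cleared while the embryo's own genome takes over transcription, and control of initiation on stored mRNA is a known feature of oocytes and early embryos.

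The embryos formed 4 groups, all with the same mixed genetic background of C57BL/6J, CBA and DBA strains, all injected as zygotes with 20 µM siRNA at 17 to 18 hours after hCG, and all cultured in KSOM at 37 °C with 5% CO2. They were 12 siRif1 and 8 siCon embryos at the 8-cell stage, collected 70 hours after hCG, and 13 siRif1 and 7 siCon embryos at the 4-cell stage, collected 63 hours after hCG. Each library held the polyadenylated RNA of 1 whole embryo, made by SMART-seq2, a full-length cDNA method with neither strand nor molecular identifiers. Each siRNA was a single catalogue product, the cells of an embryo were pooled in its library, and whether litters or injection days differed between embryos is not in the labels. P-values therefore measure the spread between these embryos. Because each library is a whole embryo, fewer cells of a type and less RNA per cell could not be told apart.

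An embryo had 704863 to 8890551 counts on mouse genes (median 3186068.5). Levels are given as CPM, counts relative to a common library total, scaled by the trimmed mean of M-values (TMM). Rif1 itself averaged 220 ± 92.9 CPM in siRif1 and 314 ± 42.6 CPM in siCon embryos at the 8-cell stage, and 178 ± 94.5 CPM in siRif1 and 428 ± 107 CPM in siCon embryos at the 4-cell stage (SD). The log2 fold change of Rif1 was -0.52 (SE 0.24, adjusted p = 0.999) at the 8-cell stage and -1.26 (SE 0.24, adjusted p = 0.0064) at the 4-cell stage by edgeR's quasi-likelihood test. Rif1 ran from 94.6 to 410 CPM in siRif1 and from 262 to 382 CPM in siCon 8-cell embryos. At the 4-cell stage these ranges were 88.3 to 381 and 302 to 568 CPM, so the groups overlapped at both stages. Among the 7 siCon 4-cell embryos, numbers 3 and 7 stood apart: the summed level of 12 oocyte transcripts such as Gdf9 and Zp3 was 1937 and 5269 CPM in them, against 243 to 828.5 CPM in the other 5 and 203 to 519 CPM in the 13 siRif1 4-cell embryos. Mitochondrial transcripts took 5.93% and 6.96% of their counts, and 7.64% in siCon 4-cell embryo 5, against 3.15% to 3.81% in the other 4. Embryo 5 also had the lowest share of counts on the initiation factor genes (1.31%) and the most reads on no gene (52.9%) of the 7. It stayed in the fit that left out both embryos 3 and 7. For the initiation factors, calls lost without embryos 3 and 7 are given with and without them. A set of 6 transcripts known to increase by the 8-cell stage summed to 672 to 1720 CPM in siRif1 and 800 to 1876 CPM in siCon 8-cell embryos, and to 222 to 559 CPM in siRif1 and 119 to 430 CPM in siCon 4-cell embryos. Markers of cumulus cells, which surround the oocyte, were near 0, with a summed level of 0 to 16.6 CPM and at most 4 of 12 markers detected in any embryo.

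Together the 55 genes took 0.913% to 2.32% of the mouse gene counts of an embryo, with a median of 1.84%. Their summed level, in TMM-scaled CPM, had a median of 20186 in siRif1 and 20408 in siCon 8-cell embryos, and of 16260 in siRif1 and 17668 in siCon 4-cell embryos. The lowest and highest sums were 16425 and 23084 in siRif1 8-cell, 18643 and 22741 in siCon 8-cell, 13629 and 20319 in siRif1 4-cell, and 10896 and 20864 in siCon 4-cell embryos. The ranges of all 4 groups overlapped.

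Per kilobase of exon, the level of single members spanned several orders of magnitude. Eif5a, whose product carries hypusine and acts in elongation and termination as well, was highest in each of the 4 groups, with 792 ± 227 CPM per kb (SD over 40 embryos). Below it came Eif2s2, the beta subunit of eIF2, at 263 ± 75.7 CPM per kb, Eif1, which guards start codon choice, at 258 ± 49.8, Eif4a3, the helicase of the exon junction complex, at 253 ± 61.4, and Eif6, which keeps the large ribosomal subunit from joining early, at 247 ± 61.0. These 4 genes lay within each other's spread. The mRNA cap-binding protein gene Eif4e followed at 209 ± 61.9 CPM per kb. Lowest of the 53 tested genes stood Eif2ak4 (GCN2, the kinase that senses uncharged tRNA) at 1.25 ± 0.602 CPM per kb and Eif4e1b, an oocyte-enriched relative of Eif4e, at 1.08 ± 1.55 CPM per kb.

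**Figure D1:**
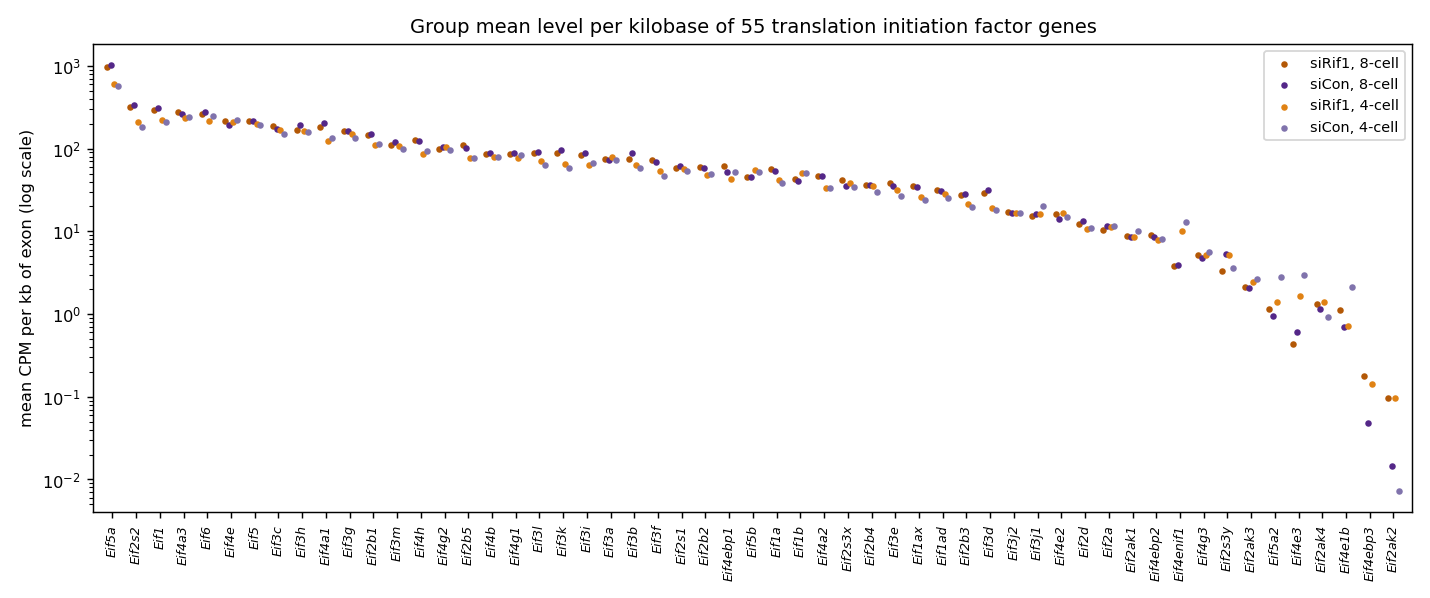
Mean level per kilobase of exon (CPM per kb, log axis) of the 55 genes in each of the 4 groups, ordered by their mean over all 40 embryos. Eif5a is highest in each group and Eif2ak2 lowest over all embryos, and a group mean of 0 (Eif4ebp3 in siCon 4-cell embryos) cannot be drawn on this axis.

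Eif2ak2 (PKR, the kinase that senses double-stranded RNA) had a highest count of 10 in any embryo and no count in 8 of 12 siRif1 and 6 of 8 siCon 8-cell embryos, and in 7 of 13 siRif1 and 6 of 7 siCon 4-cell embryos. Eif4ebp3, a repressor that binds eIF4E, had a highest count of 3, with no count in 10 of 12 siRif1 and 7 of 8 siCon 8-cell embryos, and in 11 of 13 siRif1 and 7 of 7 siCon 4-cell embryos. In the last group this allows a level of up to 3 counts per library, which covers counting error only. The other 3 eIF2alpha kinases and 3 of the 4 repressors passed the filter.

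The first question was whether siRNA against Rif1, a protein known for its part in replication timing and heterochromatin, went with a change in these transcripts. Rif1 itself did not pass the test at the 8-cell stage, and its levels overlapped between siRif1 and siCon embryos at both stages. At the 8-cell stage 0 of 53 members passed an adjusted p of 0.05 by edgeR's quasi-likelihood test, where 0.00844% of all 11844 genes tested did, in either direction. At the 4-cell stage 0 of 53 members passed, where 0.566% of all genes did. Both counts stand beside backgrounds so low that they say little about these genes in particular. At an unadjusted p below 0.05, edgeR had 0 members at the 8-cell stage and 1 at the 4-cell stage, where 2.95% and 11.1% of all genes were that low. DESeq2 and limma-voom also called 0 members at either stage. Of all 11844 genes, DESeq2 called 1 higher and 0 lower at the 8-cell stage, and 66 higher and 126 lower at the 4-cell stage. Limma-voom called 0 higher and 0 lower at the 8-cell stage, and 2 higher and 2 lower at the 4-cell stage. Their members at an unadjusted p below 0.05 numbered 0 and 1 at the 8-cell stage and 1 and 2 at the 4-cell stage. The median log2 fold change, siRif1 over siCon, was 0.01 over the members and 0.00 over all genes at the 8-cell stage, and 0.04 over the members and -0.01 over all genes at the 4-cell stage.

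The precision of these comparisons set what size of change could have been seen. An interval of 2 SE on each side lay wholly within a 2-fold change for 49 of 53 members at the 8-cell stage and 48 of 53 at the 4-cell stage. It lay within a 1.5-fold change for 44 members at the 8-cell stage and 36 at the 4-cell stage. The members whose interval reached 2-fold were Eif2s3y, Eif4e1b, Eif4e3 and Eif5a2 at both stages, and Eif2ak4 at the 4-cell stage as well, all with low or intermittent counts. The SE of the log2 fold change had a median of 0.17 at the 8-cell stage and 0.18 at the 4-cell stage.

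**Figure D2:**
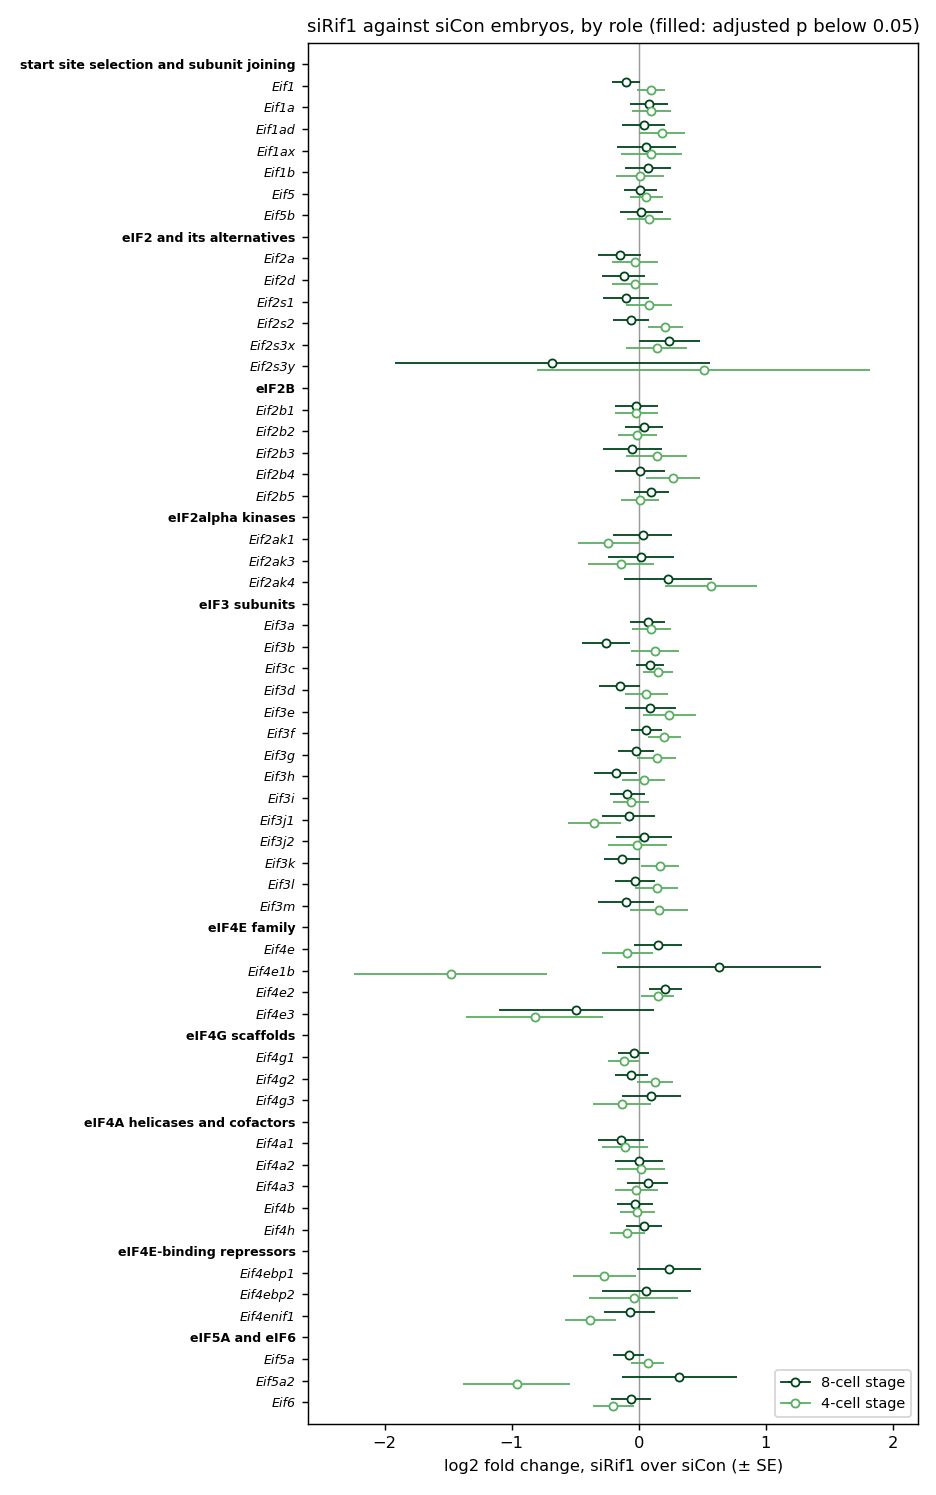
Log2 fold change, siRif1 over siCon, with its SE, for the 53 tested genes by role, at the 8-cell stage (dark, upper point of each pair) and the 4-cell stage (light, lower point); a filled point would mark an adjusted p below 0.05 and there is none. Most values lie close to 0, and Eif2s3y, Eif4e1b, Eif4e3 and Eif5a2 have the widest bars.

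At the 8-cell stage the 5 members with the smallest p were Eif4e2, Eif3b, Eif3h, Eif2s3x and Eif4ebp1. Eif4e2 (4EHP), a cap-binding protein that represses rather than starts translation, averaged 122 ± 13.4 CPM in siRif1 and 105 ± 24.0 CPM in siCon embryos (log2 fold change 0.21, SE 0.13, adjusted p = 0.999). Eif3b, a core scaffold subunit of eIF3, averaged 249 ± 87.6 CPM in siRif1 and 298 ± 61.2 CPM in siCon embryos (log2 fold change -0.26, SE 0.19, adjusted p = 0.999). The log2 fold changes of Eif3h, Eif2s3x and Eif4ebp1 were -0.18, 0.24 and 0.24, each with an adjusted p of 0.999. None of these 5 differences passed the test against the spread between embryos.

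At the 4-cell stage the smallest p belonged to Eif5a2, the minor paralogue of Eif5a. Its level was 1.27 CPM in the lowest, 6.56 in the median and 16.3 in the highest of 13 siRif1 embryos, against 4.36, 7.00 and 46.2 CPM in 7 siCon embryos. The high siCon value was that of embryo 3, and embryo 7 followed at 15.3 CPM, and 3 siRif1 embryos lay below the lowest siCon value, while the rest of the 2 groups overlapped. The log2 fold change was -0.96 (SE 0.42, p = 0.029, adjusted p = 0.38), and 0.00 without siCon embryos 3 and 7. Eif4e1b had -1.48 in log2 (SE 0.76, adjusted p = 0.47) and 0.06 without those embryos, in which it stood at 10.7 and 14.0 CPM. Eif4e1b transcripts are known to be abundant in oocytes, and here its high siCon values came from the libraries with high oocyte transcripts, whose part in this difference was not tested. Eif4enif1, which codes for the eIF4E transporter 4E-T, averaged 63.6 ± 12.4 CPM in siRif1 and 82.6 ± 23.5 CPM in siCon embryos (log2 fold change -0.38, SE 0.20, adjusted p = 0.48). Eif3j1 and Eif2ak4 followed with log2 fold changes of -0.35 and 0.57 (adjusted p = 0.56 and 0.59). Eif3j1 shares 50.9% of its 50-base exon windows with other entries, chiefly its copy Eif3j2, so its counts are uncertain.

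The effect of siRif1 was also set against itself between the stages. The siRNA by stage interaction, the 8-cell effect minus the 4-cell effect, had 0 of 53 members past the threshold by edgeR, where 0.00% of all genes passed. DESeq2 and limma-voom called 0 members. Of all 11844 genes, DESeq2 called 8 higher and 2 lower, and limma-voom 0 higher and 0 lower. The number of members at an unadjusted p below 0.05 was 1 by edgeR, where 6.20% of all genes were that low. It was 2 by DESeq2 and 0 by limma-voom. The smallest p was that of Eif5a2 (log2 difference 1.28, SE 0.62, adjusted p = 0.79), followed by Eif4e1b (2.12, SE 1.11, adjusted p = 0.85), Eif3k (-0.30), Eif3b (-0.39) and Eif4ebp1 (0.50).

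The second question was how these transcripts differed between the 8-cell and the 4-cell stage, within embryos of each siRNA. Some of these transcripts, among them Eif2s2, Eif5a, Eif1 and several eIF3 subunits, were 1.30 to 1.84 times as high at the 8-cell stage. The top of this range, 1.84, was Eif2s2 in siCon embryos with 4-cell embryos 3 and 7 included. Transcripts of Eif4enif1 and Eif4e3 fell to between 0.203 and 0.376 times their 4-cell level. In siRif1 embryos 13 of 53 members were higher (24.5%) and 2 lower (3.77%), where 14.5% of all genes were higher and 15.3% lower. In siCon embryos 13 members were higher (24.5%) and 3 lower (5.66%), where 13.7% of all genes were higher and 16.3% lower. The share of members that changed in either direction was 28.3% in siRif1 embryos, where 29.8% of all genes did, and 30.2% in siCon embryos, where 30.0% of all genes did, so the amount of change was near the background and no result about these genes. At an unadjusted p below 0.05 there were 20 members in siRif1 embryos, where 40.9% of all genes were that low, and 19 in siCon embryos, where 40.6% were. The direction leaned upward: the median log2 fold change, 8-cell over 4-cell, was 0.16 over the members and -0.01 over all genes in siRif1 embryos, and 0.27 over the members and -0.03 over all genes in siCon embryos. Without siCon 4-cell embryos 3 and 7, siRif1 embryos had 14 members higher and 2 lower, and siCon embryos 7 higher and 2 lower. The siCon member median was then 0.07 and the all-gene median 0.01. Of the 12223 genes in that fit, 1872 were higher and 2054 lower in siRif1 embryos, and 1214 and 1432 in siCon embryos. By limma-voom on all embryos the siCon medians were 0.10 over the members and 0.06 over all genes. There 8 of 53 members and 1761 of 11844 genes were higher, so the upward lean in siCon embryos depended on the method. The 12 oocyte transcripts moved with the stage as well, at 48.9 to 134 CPM in siRif1 and 27.7 to 146 CPM in siCon 8-cell embryos against the higher 4-cell sums given above, and their part in the stage differences was not tested.

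The 2 stage comparisons share no library. Of the members past the threshold, 13 were called in both, 11 of them higher and 2 lower, which was 86.7% of the siRif1 calls and 81.2% of the siCon calls. Over all genes 66.8% of the siRif1 calls and 66.3% of the siCon calls were shared. Without siCon 4-cell embryos 3 and 7, all 15 siRif1 calls but only 7 of the 16 siCon calls still passed. Of the 13 shared members, Eif1a, Eif2b5, Eif3i, Eif4a1, Eif4e3 and Eif4h then lost their siCon call. The 2 members called in siRif1 embryos alone were Eif2b1 and Eif4a2, both higher, and the 3 called in siCon embryos alone were Eif3b and Eif3l, higher, and Eif5a2, lower; no interaction passed for any of these 5, so a difference between siRif1 and siCon embryos was not shown. The sign was the same for 45 of 53 members, and Spearman's rho across the 53 members was 0.69, against 0.80 across all genes. Members are not independent replicates, and both comparisons share 1 normalisation and 1 estimate of the spread. Leaving out a single siRif1 8-cell embryo could therefore lose a siCon call, as it did for Eif2b5 and Eif4h.

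**Figure D3:**
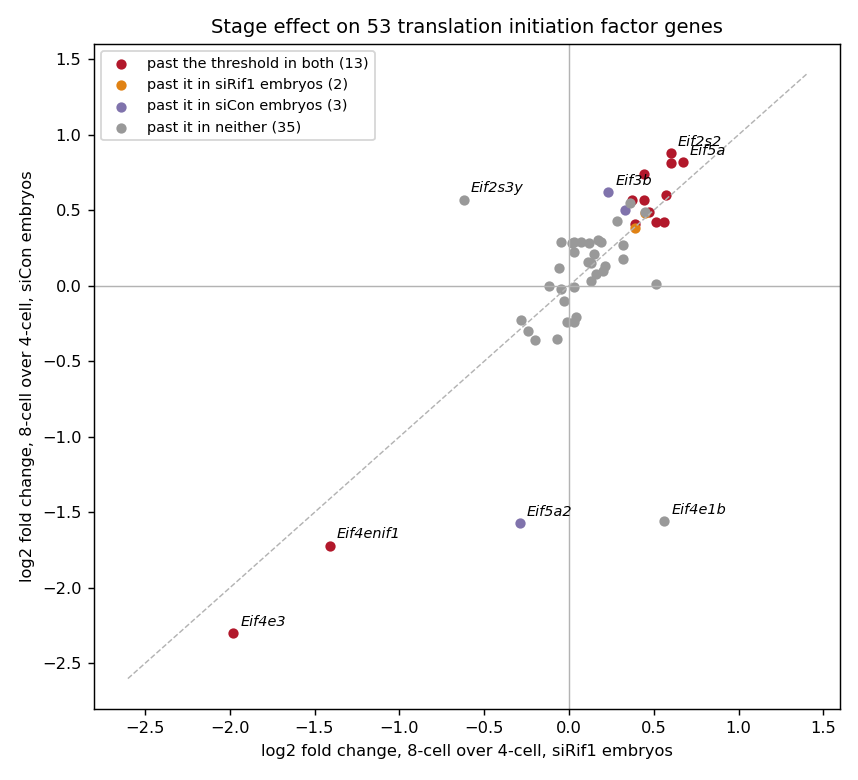
Log2 fold change, 8-cell over 4-cell, of the 53 tested genes in siRif1 embryos (x axis) and siCon embryos (y axis), coloured by which comparison passed an adjusted p of 0.05; the dashed line marks equal values. The 13 genes called in both lie near the line, with Eif2s2 and Eif5a at the upper end and Eif4enif1 and Eif4e3 at the lower end, while Eif5a2, Eif4e1b and Eif2s3y lie away from it.

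These fold changes are relative to the mouse gene counts of a library. With the ERCC spike-in totals as the scale instead, the median log2 fold change of all genes was 0.46 in siRif1 and 0.49 in siCon embryos. Genes were called in both directions on that scale, but far more were higher than lower in either comparison. On that scale the member median was 0.65 in siRif1 and 0.61 in siCon embryos. There were 18 members higher and 2 lower in siRif1 embryos, and 5 higher and 1 lower in siCon embryos. The share of members called higher was above that of all genes in siRif1 embryos but below it in siCon embryos. The excess of higher calls among members was therefore not seen in siCon embryos on that scale. All 15 siRif1 calls and all 16 siCon calls kept their direction, including the falls of Eif4enif1 and Eif4e3. All 15 siRif1 calls also stayed past the threshold, as did 5 of the 16 siCon calls.

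Among the factors of start site selection and subunit joining, 2 of 7 were higher in siRif1 embryos and 2 of 7 in siCon embryos, and none was lower. Over all genes 14.5% were higher and 15.3% lower in siRif1 embryos, and 13.7% and 16.3% in siCon embryos. A role holds 3 to 14 tested genes, so counts by role here and below are descriptions and no result about a role. Eif1 was 467 CPM in the lowest, 616 in the median and 680 in the highest of 12 siRif1 8-cell embryos, against 398, 469 and 526 CPM in 13 siRif1 4-cell embryos. In siCon embryos it was 554, 666 and 719 CPM at the 8-cell stage and 264, 446 and 536 CPM at the 4-cell stage. Thus 11 of 12 siRif1 and 8 of 8 siCon 8-cell embryos lay above every 4-cell embryo of their siRNA. The log2 fold change of Eif1 was 0.37 (SE 0.09, adjusted p = 0.0021) in siRif1 and 0.57 (SE 0.12, adjusted p = 0.00038) in siCon embryos. Eif1a, an autosomal gene for eIF1A, which works with eIF1 in scanning, also rose, by 0.47 in log2 in siRif1 embryos (SE 0.13, adjusted p = 0.0047) and 0.49 in siCon embryos (SE 0.17, adjusted p = 0.022). The siCon call on Eif1a was lost without embryo 3 or 7 of the 4-cell group or embryo 5 of the 8-cell group, and the value was 0.32 (adjusted p = 0.18) without both embryos 3 and 7. Its X-linked paralogue Eif1ax averaged 187 ± 73.9 CPM in siRif1 8-cell and 137 ± 47.0 CPM in siRif1 4-cell embryos, and 180 ± 61.1 CPM in siCon 8-cell and 127 ± 47.8 CPM in siCon 4-cell embryos, with log2 fold changes of 0.45 and 0.49 that did not pass (adjusted p = 0.083 and 0.15). Eif5 and Eif5b, the factors that trigger GTP hydrolysis on eIF2 and subunit joining, had log2 fold changes of 0.11 and -0.28 in siRif1 embryos and 0.16 and -0.23 in siCon embryos, none past the threshold.

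Of the 6 genes for eIF2 and its alternatives, Eif2s2 alone passed, in both comparisons. The gene lies on the minus strand at chr2:154871410-154892935 (GRCm38, as all positions here). It was 1783 CPM in the lowest, 2232 in the median and 2586 in the highest siRif1 8-cell embryo, against 1114, 1360 and 2194 CPM in siRif1 4-cell embryos. The siCon values were 2015, 2223 and 2717.5 CPM at the 8-cell stage and 565, 1387 and 1570 CPM at the 4-cell stage. All 8 siCon 8-cell embryos lay above every siCon 4-cell embryo. For siRif1, 7 of 12 8-cell embryos lay above all at the 4-cell stage. This overlap came from siRif1 4-cell embryo 5 alone, at 2194 CPM in the library of lowest count (704863). The next siRif1 4-cell value, 1706 CPM in embryo 1, lay below the lowest siRif1 8-cell value of 1783 CPM. The log2 fold change was 0.60 (SE 0.12, adjusted p = 0.00019) in siRif1 embryos and 0.88 (SE 0.16, adjusted p = 4.9e-05) in siCon embryos. The lowest siCon 4-cell values were those of embryos 3 and 7, at 736 and 565 CPM, and without them the siCon value was 0.61 (adjusted p = 0.0005). The alpha subunit gene Eif2s1 had log2 fold changes of 0.03 in siRif1 and 0.22 in siCon embryos, neither past the threshold, and the gamma subunit gene Eif2s3x 0.13 and 0.03.

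Eif2s3x and Eif2s3y code for the same gamma subunit from the X and the Y chromosome. Eif2s3x had counts in all 40 embryos, with averages of 159 ± 67.3 CPM in siRif1 and 135 ± 46.6 CPM in siCon 8-cell embryos and 146 ± 60.2 CPM in siRif1 and 132 ± 33.4 CPM in siCon 4-cell embryos. Eif2s3y had counts in 20 of 40 embryos, namely 5 of 12 siRif1 and 4 of 8 siCon 8-cell embryos and 8 of 13 siRif1 and 3 of 7 siCon 4-cell embryos. Of the 20 embryos with counts, 19 also had counts on at least 2 of the 3 other Y-linked genes, Ddx3y, Kdm5d and Uty, and of the 20 without counts, 17 had none on any of them. The spread of Eif2s3y within a group therefore ran from 0 to 79.9 CPM, and its SE of 1.11 for the stage effect in siRif1 and 1.43 in siCon embryos was the largest of the 53.

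For eIF2B, 2 of 5 subunits were higher in siRif1 embryos and 1 of 5 in siCon embryos. Over all genes the shares higher were 14.5% and 13.7%. Eif2b5, the catalytic epsilon subunit, was 195 CPM in the lowest, 297 in the median and 342 in the highest siRif1 8-cell embryo, against 113, 214 and 262 CPM in siRif1 4-cell embryos. Its siCon levels were 223, 256 and 325 CPM at the 8-cell stage and 138, 200 and 272 CPM at the 4-cell stage, and the groups overlapped for both siRNAs. Its log2 fold change was 0.51 (SE 0.12, adjusted p = 0.0017) in siRif1 and 0.42 (SE 0.16, adjusted p = 0.043) in siCon embryos, and the siCon call was lost in 12 of 15 fits that left out 1 siCon embryo. Without siCon 4-cell embryos 3 and 7 the siCon value of Eif2b5 was 0.32 (adjusted p = 0.19). Eif2b1, the alpha subunit, had log2 fold changes of 0.39 (SE 0.15, adjusted p = 0.037) in siRif1 and 0.38 (SE 0.19, adjusted p = 0.12) in siCon embryos; its siRif1 call was lost in 11 of 25 fits that left out 1 siRif1 embryo. Of the eIF2alpha kinases, 0 of 3 tested passed in either comparison. The smallest p in both was that of Eif2ak3 (PERK, the kinase of the endoplasmic reticulum stress response), with log2 fold changes of -0.20 in siRif1 and -0.36 in siCon embryos (adjusted p = 0.52 and 0.36), which turned to 0.23 and 0.07 on the spike-in scale.

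The eIF3 complex had 4 of 14 subunit genes higher in siRif1 embryos (28.6%) and 6 of 14 in siCon embryos (42.9%), and none lower. Over all genes the shares higher were 14.5% and 13.7%. The 4 higher in both were Eif3d, which can itself bind the cap of selected mRNAs, Eif3f, Eif3i and Eif3k. Eif3k, on the minus strand at chr7:28971372-28981864, was 177 CPM in the lowest, 240 in the median and 322 in the highest siRif1 8-cell embryo, against 132, 173 and 253 CPM in siRif1 4-cell embryos. In siCon embryos it was 225, 258 and 314 CPM at the 8-cell stage and 87.4, 138 and 219 CPM at the 4-cell stage. The siCon groups did not overlap, and the siRif1 groups did. Its log2 fold change was 0.44 (SE 0.12, adjusted p = 0.006) in siRif1 and 0.74 (SE 0.16, adjusted p = 0.00051) in siCon embryos. Eif3d gave 0.60 (SE 0.15, adjusted p = 0.0016) and 0.81 (SE 0.19, adjusted p = 0.0011), but 43.3% of its exon bases overlap the opposite-strand gene Gm17638, and with the sum of the stranded counts, which was larger for Eif3d and takes in reads of that overlap, neither call held (adjusted p = 0.072 in siRif1 and 0.083 in siCon embryos). Eif3f, a regulatory subunit, was 156, 213 and 254 CPM in siRif1 8-cell and 115, 157 and 186 CPM in siRif1 4-cell embryos, and 165, 205 and 224 CPM in siCon 8-cell and 86.3, 150 and 174 CPM in siCon 4-cell embryos. Of the 8-cell embryos, 10 of 12 siRif1 and 7 of 8 siCon lay above every 4-cell embryo of their siRNA, and the log2 fold changes of Eif3f were 0.44 (adjusted p = 0.0019) and 0.57 (adjusted p = 0.0016).

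The remaining eIF3 calls were less stable. Eif3i had log2 fold changes of 0.39 (SE 0.12, adjusted p = 0.015) in siRif1 and 0.41 (SE 0.16, adjusted p = 0.044) in siCon embryos, and the siCon call was lost in 10 of 15 fits that left out 1 siCon embryo. Eif3b had 0.23 (SE 0.16, adjusted p = 0.30) in siRif1 and 0.62 (SE 0.21, adjusted p = 0.025) in siCon embryos, and this siCon call was lost without embryo 4 or 7 of the siCon 4-cell group or embryo 1 or 3 of the siCon 8-cell group. Eif3l had 0.33 (SE 0.14, adjusted p = 0.075) in siRif1 and 0.50 (SE 0.18, adjusted p = 0.035) in siCon embryos, lost in 6 of 15 such fits. Without siCon 4-cell embryos 3 and 7 the siCon values were 0.27 for Eif3i, 0.52 for Eif3b and 0.36 for Eif3l (adjusted p = 0.26, 0.098 and 0.17). The scaffold subunits Eif3a and Eif3c had log2 fold changes of -0.05 and 0.15 in siRif1 embryos and -0.02 and 0.21 in siCon embryos, none past the threshold; differences between subunits were not tested.

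In the cap-binding eIF4E family, 1 of 4 genes was lower in each comparison and none was higher. Eif4e, the main cap-binding factor and the most abundant of the 4 per kilobase, averaged 1285 ± 402 CPM in siRif1 8-cell and 1253 ± 293 CPM in siRif1 4-cell embryos, and 1158 ± 293 CPM in siCon 8-cell and 1337 ± 555 CPM in siCon 4-cell embryos. Its log2 fold changes of 0.04 (SE 0.17) and -0.21 (SE 0.22) did not pass (adjusted p = 0.89 and 0.50). Eif4e3, an atypical member of the family at chr6:99625135-99666771 on the minus strand, was 0 CPM in the lowest, 0.744 in the median and 3.93 in the highest siRif1 8-cell embryo, against 0.781, 2.64 and 12.8 CPM in siRif1 4-cell embryos. The siCon embryos had 0, 1.38 and 4.02 CPM at the 8-cell stage and 2.21, 5.17 and 17.1 CPM at the 4-cell stage. The log2 fold change of Eif4e3 was -1.98 (SE 0.53, adjusted p = 0.004) in siRif1 and -2.30 (SE 0.64, adjusted p = 0.0058) in siCon embryos, at counts of at most 8 per library at the 8-cell stage. Without siCon 4-cell embryos 3 and 7, the highest of their group, the siCon value was -1.35 (adjusted p = 0.15) and the siRif1 value -1.99 (adjusted p = 0.0027). Eif4e1b averaged 2.54 ± 4.16 CPM in siRif1 8-cell and 1.63 ± 1.38 CPM in siRif1 4-cell embryos, and 1.58 ± 1.56 CPM in siCon 8-cell and 4.76 ± 5.73 CPM in siCon 4-cell embryos, with no call.

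Among the eIF4E-binding repressors, Eif4enif1 was the only gene called in either comparison, and it was lower in both. The gene lies on the plus strand at chr11:3202392-3244588. It was 9.94 CPM in the lowest, 22.5 in the median and 45.0 in the highest siRif1 8-cell embryo, against 44.8, 65.5 and 84.4 CPM in siRif1 4-cell embryos. Its siCon levels were 11.3, 26.4 and 32.6 CPM at the 8-cell stage and 41.0, 84.7 and 108 CPM at the 4-cell stage. Thus 11 of 12 siRif1 and 8 of 8 siCon 8-cell embryos lay below every 4-cell embryo of their siRNA. Its log2 fold change was -1.41 (SE 0.18, adjusted p = 7e-08) in siRif1 and -1.72 (SE 0.23, adjusted p = 2.6e-07) in siCon embryos, the smallest adjusted p of the 53 members in both. The protein, 4E-T, is known to bind eIF4E and to sit in the ribonucleoprotein bodies that hold repressed mRNA. The direction and the call held without siCon 4-cell embryos 3 and 7, where the siCon value was -1.65 (adjusted p = 2.9e-06). The classical repressor genes Eif4ebp1 and Eif4ebp2 had log2 fold changes of 0.51 and 0.20 in siRif1 embryos (adjusted p = 0.064 and 0.65) and of 0.01 and 0.10 in siCon embryos (adjusted p = 0.99 and 0.87).

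**Figure D4:**
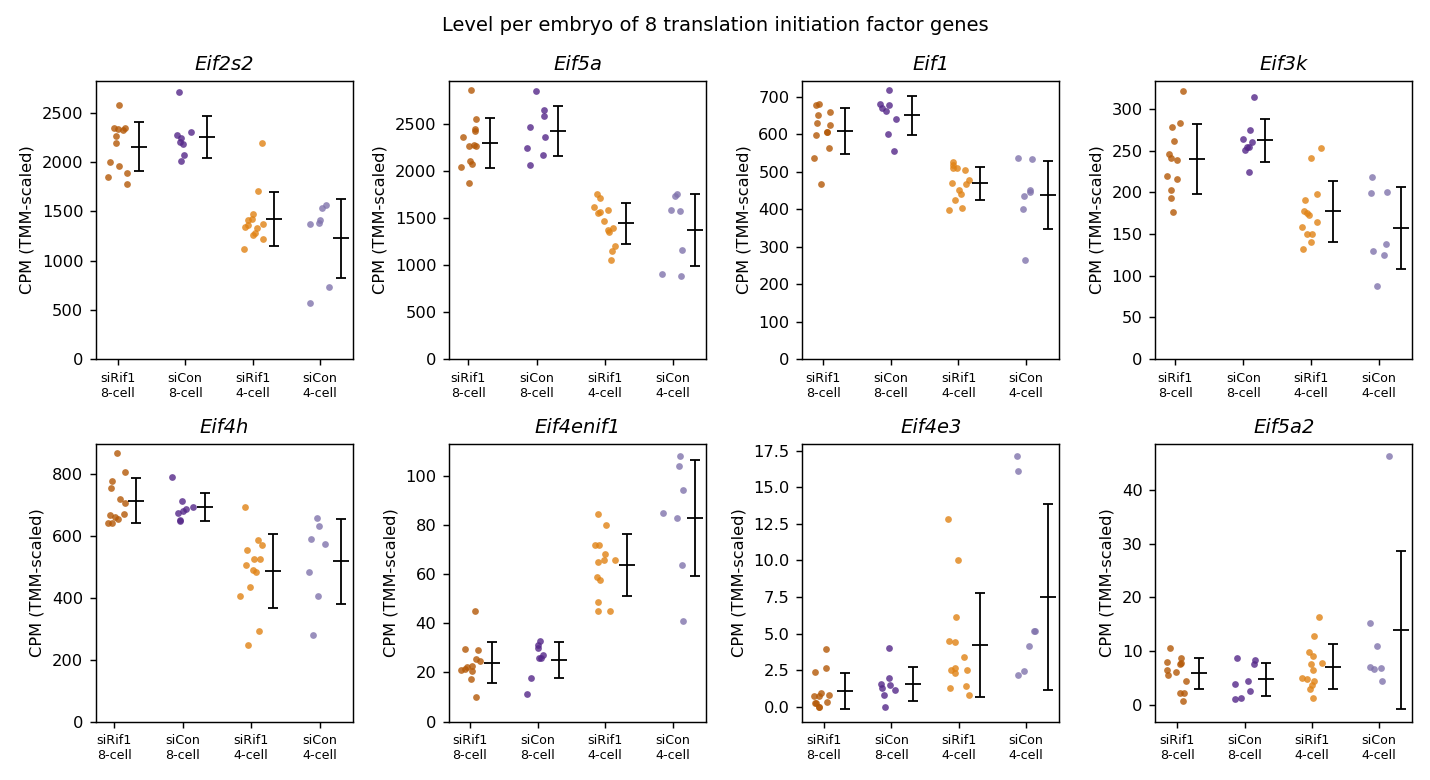
Level of 8 genes in each embryo (CPM scaled by TMM), with the mean and SD of each group in black, for 12 siRif1 and 8 siCon 8-cell embryos and 13 siRif1 and 7 siCon 4-cell embryos. Eif2s2, Eif5a, Eif1, Eif3k and Eif4h are higher and Eif4enif1 and Eif4e3 lower at the 8-cell stage, and the high siCon 4-cell point of Eif5a2 at 46.2 CPM is embryo 3.

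The eIF4G scaffolds, which hold the cap complex and eIF3 together, had 0 of 3 genes past the threshold in either comparison. Eif4g1 averaged 621 ± 89.5 CPM in siRif1 8-cell and 555 ± 80.3 CPM in siRif1 4-cell embryos (log2 fold change 0.16, SE 0.10, adjusted p = 0.24), and 641 ± 119 CPM in siCon 8-cell and 606 ± 106 CPM in siCon 4-cell embryos (0.08, SE 0.13, adjusted p = 0.68). Of the eIF4A helicases and their cofactors, 3 of 5 were higher in siRif1 embryos and 2 of 5 in siCon embryos. Over all genes the shares higher were 14.5% and 13.7%. Eif4a1, the main helicase gene, was 389 CPM in the lowest, 734 in the median and 1196 in the highest siRif1 8-cell embryo, against 377, 575 and 760 CPM in siRif1 4-cell embryos. The siCon values were 665, 872 and 1131 CPM at the 8-cell stage and 282, 624 and 761 CPM at the 4-cell stage. The siRif1 groups overlapped widely, while 7 of 8 siCon 8-cell embryos lay above every siCon 4-cell embryo. Its log2 fold change was 0.57 (SE 0.16, adjusted p = 0.005) in siRif1 and 0.60 (SE 0.20, adjusted p = 0.021) in siCon embryos; the siCon call was lost without siCon 4-cell embryo 5, by limma-voom and with ERCC scaling. Without siCon 4-cell embryos 3 and 7 the siCon value was 0.52 (adjusted p = 0.091), and 28.4% of the 50-base windows of Eif4a1 also occur in other entries.

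Eif4h, a cofactor that stimulates eIF4A, was 641 CPM in the lowest, 687 in the median and 865 in the highest siRif1 8-cell embryo, against 246, 505 and 692 CPM in siRif1 4-cell embryos. In siCon embryos it was 648, 682 and 789 CPM at the 8-cell stage and 278, 574 and 655 CPM at the 4-cell stage. Only the top of each 4-cell range reached the 8-cell values. The log2 fold change of Eif4h was 0.56 (SE 0.12, adjusted p = 0.00066) in siRif1 and 0.42 (SE 0.16, adjusted p = 0.043) in siCon embryos, the siCon call being lost in 10 of 15 fits that left out 1 siCon embryo and the siCon value being 0.22 (adjusted p = 0.34) without 4-cell embryos 3 and 7. Eif4a2 had log2 fold changes of 0.45 (SE 0.17, adjusted p = 0.036) in siRif1 and 0.48 (SE 0.22, adjusted p = 0.089) in siCon embryos. The siRif1 call on Eif4a2 was lost in 15 of 25 fits that left out 1 siRif1 embryo, and without siCon 4-cell embryos 3 and 7 its siCon value was 0.84 (adjusted p = 0.0038). Eif4a3 and the cofactor gene Eif4b passed in neither comparison, with log2 fold changes of 0.21 and 0.13 in siRif1 and 0.13 and 0.15 in siCon embryos.

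Eif5a, on the minus strand at chr11:69916714-69921958, was 1868 CPM in the lowest, 2270 in the median and 2856 in the highest siRif1 8-cell embryo, against 1049, 1465 and 1755 CPM in siRif1 4-cell embryos. The siCon embryos had 2065, 2413 and 2849 CPM at the 8-cell stage and 885, 1578 and 1754 CPM at the 4-cell stage. For either siRNA every 8-cell embryo lay above every 4-cell embryo. Its log2 fold change was 0.67 (SE 0.11, adjusted p = 7.5e-06) in siRif1 and 0.82 (SE 0.14, adjusted p = 2.5e-05) in siCon embryos, and 0.61 (adjusted p = 0.00069) in siCon embryos without 4-cell embryos 3 and 7. The paralogue Eif5a2 fell in siCon embryos, its log2 fold change being -1.57 (SE 0.49, adjusted p = 0.014), against -0.29 (SE 0.38, adjusted p = 0.60) in siRif1 embryos. That siCon call was lost without 4-cell embryo 3, and the value was -0.63 (adjusted p = 0.38) without embryos 3 and 7. Eif6 averaged 717 ± 152 CPM in siRif1 8-cell and 576 ± 102 CPM in siRif1 4-cell embryos, and 747 ± 162 CPM in siCon 8-cell and 661 ± 227 CPM in siCon 4-cell embryos, with log2 fold changes of 0.32 and 0.18 that did not pass (adjusted p = 0.084 and 0.49).

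**Figure D5:**
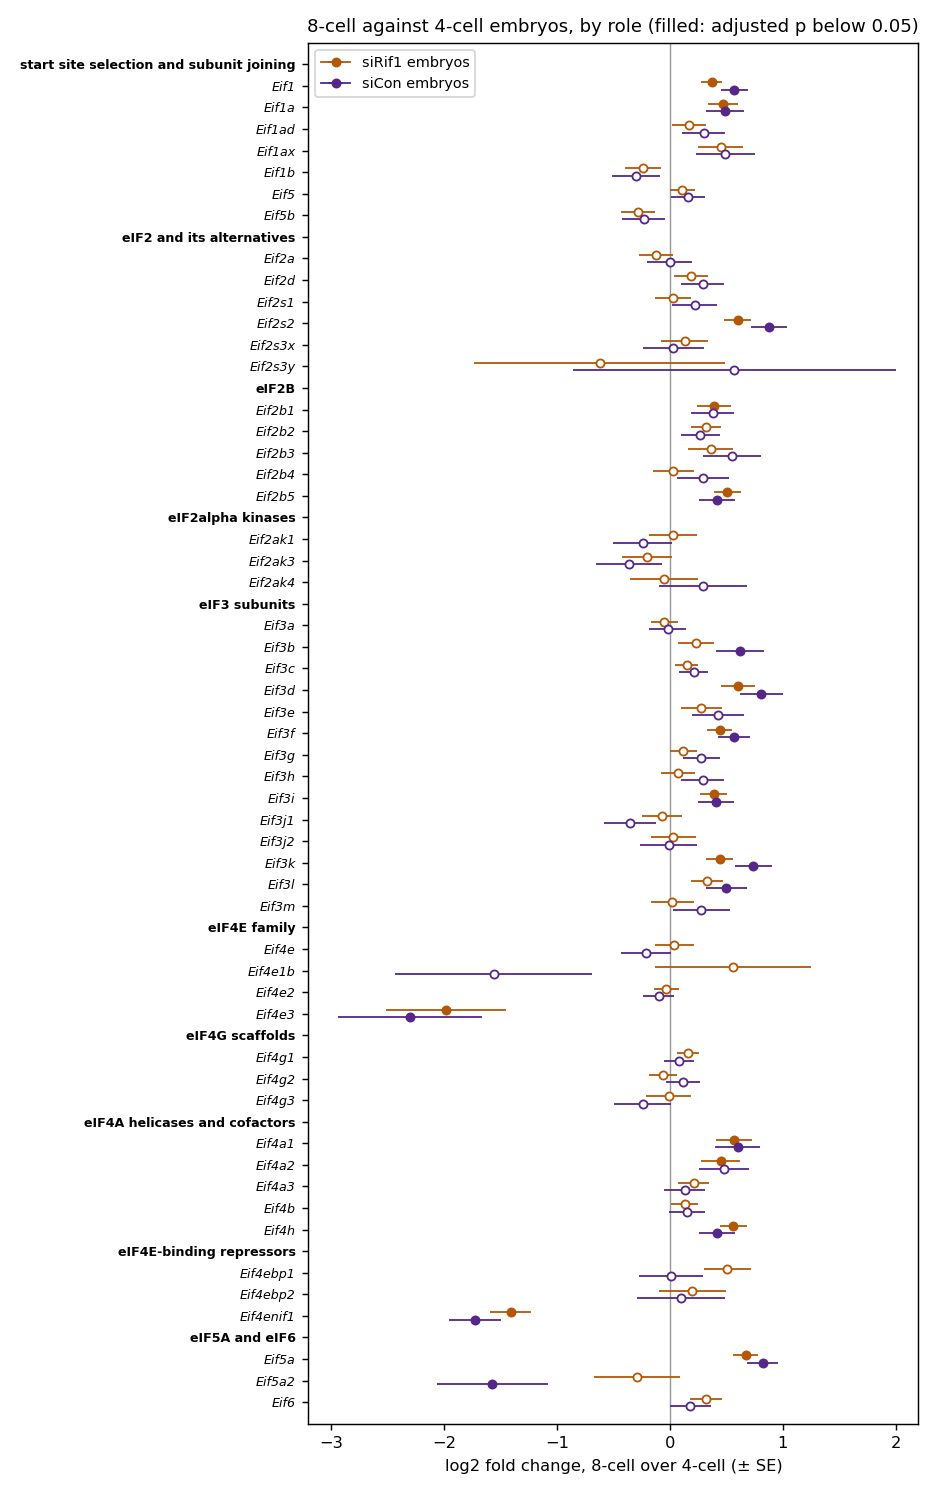
Log2 fold change, 8-cell over 4-cell, with its SE, for the 53 tested genes by role, in siRif1 embryos (upper point of each pair) and siCon embryos (lower point); filled points passed an adjusted p of 0.05. The filled points are above 0 except Eif4enif1 and Eif4e3, lower in both, and Eif5a2, lower in siCon embryos.

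The members that rose in both comparisons were also looked up by their promoter sequence, from 250 bases before to 50 after the start in RefSeq (GRCm38.p6), where 43 of 55 members had an entry. The motif CACGTG, an E-box core bound by MYC, USF and related factors, reads the same on both strands. It was in the promoters of 5 of the 9 risers with an entry (55.6%; Eif1a and Eif3i had none), of 5 of 34 other members (14.7%), and of 2187 of all 27025 genes in the table (8.09%). The risers were picked by their values and the median GC content differed between these sets, at 56.7%, 62.5% and 52.8%, so the shares are a description with no test. The sequences are shown to let the shared core be seen in its surroundings, 30 bases each, on the strand of the gene, with the core in capitals.
Eif3f, chr7:108934335-108934364, plus strand, 68 bases before the start: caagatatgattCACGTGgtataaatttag
Eif3k, chr7:28981915-28981944, minus strand, 44 bases before the start: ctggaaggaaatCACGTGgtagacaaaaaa
Eif4a1, chr11:69672595-69672624, minus strand, 189 bases before the start: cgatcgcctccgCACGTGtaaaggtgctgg
Eif4h, chr5:134639488-134639517, minus strand, 96 bases before the start: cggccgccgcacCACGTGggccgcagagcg
Eif5a, chr11:69920791-69920820, minus strand, 178 bases before a start: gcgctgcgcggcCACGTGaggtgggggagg
Eif5a, chr11:69921443-69921472, minus strand, 185 bases before another start: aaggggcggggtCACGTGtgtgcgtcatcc
The distance of the core from the start ran from 44 to 189 bases. The 5 other members with the core were Eif1b, Eif3a, Eif4e, Eif4g1 and Eif5a2, of which none was called higher in either comparison. A C followed by 4 pyrimidines at the start base, read on the strand of the gene only, is the start of the 5′ terminal oligopyrimidine motif known from ribosomal protein mRNAs. It was found in 2 of 43 members (4.65%), Eif3f and Eif2s3x, against 3.01% of all genes in the table. The start region of Eif3f, with the pyrimidines from the start base on in capitals, does not overlap its E-box core.
Eif3f, chr7:108934403-108934432, plus strand: gttctaggctctCTCTCTTTCTCggcaaga

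Genes that work beside the initiation factors were counted in the same stage comparisons. Of 36 tested regulators and partners, 4 were higher and 6 lower in siRif1 embryos, and 3 higher and 7 lower in siCon embryos. Either way this was 27.8% of the list, near the 29.8% of all genes in siRif1 and 30.0% in siCon embryos, and so no result about the list. The genes of the cytoplasmic poly(A)-binding proteins Pabpc1 and Pabpc4 rose, with log2 fold changes of 0.66 and 0.88 in siRif1 embryos (adjusted p = 0.0052 and 0.00041) and 1.20 and 1.16 in siCon embryos (adjusted p = 0.00019 and 0.00042). Paip1, whose product bridges poly(A)-binding protein to eIF4A, fell, with -0.93 in siRif1 and -0.97 in siCon embryos (adjusted p = 2e-05 and 0.00034). Tsc1, a brake on mTOR, and Ppp1r15a, which directs dephosphorylation of eIF2alpha, also fell, with -0.80 and -0.90 in siRif1 embryos (adjusted p = 0.0039 and 0.0097) and -1.24 and -0.93 in siCon embryos (adjusted p = 0.00058 and 0.033). Ppp1r15a averaged 50.7 ± 37.6 CPM in siCon 4-cell embryos, a wide spread. The siCon calls of these regulators and partners are not given without siCon 4-cell embryos 3 and 7. The list's median log2 fold change was -0.07 in siRif1 and 0.00 in siCon embryos.

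Of 14 tested elongation and termination factors, 5 were higher and 1 lower in siRif1 embryos, and 6 higher and 1 lower in siCon embryos, with medians of 0.20 and 0.29. These were 35.7% higher and 7.14% lower in siRif1 embryos, where 14.5% and 15.3% of all genes were, and 42.9% higher and 7.14% lower in siCon embryos, where 13.7% and 16.3% of all genes were. Eef1b2 and Eef1g, subunits of the exchange factor of eEF1A, rose, with log2 fold changes of 0.73 and 0.63 in siRif1 embryos (adjusted p = 0.0014 and 0.005) and 1.07 and 0.97 in siCon embryos (adjusted p = 0.00043 and 0.001). Eef2, the translocation factor, rose too, with 0.54 in siRif1 and 0.55 in siCon embryos (adjusted p = 0.0009 and 0.0086). The gene of its inhibitory kinase, Eef2k, fell, with -1.01 in siRif1 and -2.55 in siCon embryos (adjusted p = 0.027 and 5.6e-05). Eef2k averaged 15.9 ± 13.7 CPM in siCon 4-cell embryos, a wide spread. The siCon calls of this list are not given without siCon 4-cell embryos 3 and 7. Between siRif1 and siCon embryos 0 genes of either list were called by edgeR at either stage. Over all genes 0.00844% were called at the 8-cell stage and 0.566% at the 4-cell stage. At the 8-cell stage 2 of 36 regulators and 1 of 14 elongation factors had an unadjusted edgeR p below 0.05, where 2.95% of all genes did. At the 4-cell stage these were 1 of 36 and 1 of 14, where 11.1% of all genes were that low.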

How the data were processed

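Single embryos were sequenced by SMART-seq2 with ERCC spike-ins in the lysis buffer. The authors deposited raw read counts per gene, 1 file per embryo, with an unstranded and 2 stranded columns; the unstranded count was used. STAR 2.7.6a and the GRCm38 build are named per the submitters' processing notes; the gene annotation was not given in the sources used here, and 55227 gene IDs were named by GENCODE M21. The 92 ERCC entries and the 4 summary entries (reads on no gene, 23.18% to 55.43% per library) stayed out of library sizes and tests.

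Counts were scaled by TMM and tested with edgeR 4.0.16 (quasi-likelihood, robust; R 4.3.3) on the 11844 genes passing filterByExpr with a minimum count of 10, with 1 coefficient for each of the 4 groups over all 40 libraries. P-values were Benjamini-Hochberg adjusted over all genes tested, with a threshold of 0.05. The fit was also run on simulated counts with the same spread for every gene and no deviating embryos. That setting differs from these data, so no result here rests on it. Groups came from the sample labels. No 2 libraries of a group agreed within sampling noise: the lowest chi-square per degree of freedom was 7.14 over 193 pairs. The members and lists were chosen with earlier results of these data known. Genes were named by a rule: the 5 smallest p in each siRif1 comparison, up to 3 called genes or the smallest p per role in each stage comparison, the 5 highest per kilobase, and 3 paralogue pairs; members outside it were chosen after their values were seen. Reads are not unique molecules, so limits from counts cover counting error only. SMART-seq2 keeps no strand, so reads of overlapping genes on opposite strands cannot be told apart, and the stranded columns can count reads that the unstranded one leaves out; 6 members have over 10% of exon bases in such overlaps, and 15 share over 10% of their 50-base windows with other entries. Alternatives were DESeq2 1.42.0, its size factors, limma-voom 3.58.1, ERCC scaling, no filter on low counts, each comparison's groups alone, the sum of the stranded columns, a replicate block and leaving out libraries.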

Additional observations from a re-analysis of the deposited data

Results flagged for a closer look

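In 60 group by gene sets of 4 to 10 embryos, 6 had a highest value far from the nearest other. Chance alone flags about 1 in 20 such sets. The siRif1 groups, with 12 and 13 embryos, were outside this size, so only siCon embryos could be flagged. Eif2s2 was 2717.5 CPM in siCon 8-cell embryo 7, and 2311 CPM in the next. Eif4g3 was 78.6 CPM in the same embryo, and 58.2 CPM in the next. Eif4h was 789 CPM in siCon 8-cell embryo 5, and 711 CPM in the next. Eif2s3x was 206 CPM in siCon 4-cell embryo 4, and 130 CPM in the next. Eif4e2 was 155 CPM in siCon 4-cell embryo 3, and 115 CPM in the next. Eif5a2 was 46.2 CPM in siCon 4-cell embryo 3, and 15.3 CPM in the next. Leaving out embryo 3 lost the siCon stage call on Eif5a2.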

How the results depend on the processing

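Between siRif1 and siCon embryos, and for the interaction, 0 members passed under every setting run. In the siCon stage comparison (13 higher, 3 lower) 8 members were higher with no filter on low counts, where 1450 of 35356 genes were. By limma-voom 8 members were higher, where 1761 of 11844 genes were. With the 2 groups fitted alone 8 were higher, where 1046 of 9947 genes were. ERCC scaling gave 5 higher and 1 lower, where 1799 and 425 of 11844 genes were. Leaving out siCon 4-cell embryos 3 and 7 gave 7 higher, where 1214 of 12223 genes were. By limma-voom the share of members higher was thus near that of all genes, with median log2 fold changes of 0.10 and 0.06. In the siRif1 stage comparison (13 higher, 2 lower) 1 was lower with the groups alone. Leaving out 1 library gave 8 to 14 higher and 2 to 3 lower in siCon, and 11 to 14 higher and 2 to 3 lower in siRif1 embryos. Signs turned in low or unchanged genes, and the cause was not tested. Without embryos 3 and 7 the 4-cell siRif1 effect was 0.00 for Eif5a2 and 0.06 for Eif4e1b; by limma-voom it was 0.31 for Eif4e1b, its interaction -0.58, and the siCon stage effect of Eif4g1 0.00. With ERCC scaling the 8-cell siRif1 effect of Eif3h was 0.01, and the stage effects were 0.23 in siRif1 and 0.07 in siCon for Eif2ak3, 0.27 and 0.26 for Eif4g3, and 0.04 in siRif1 for Eif5a2. Eif4g3 in siRif1 ran from -0.13 to 0.07 when 1 library was left out. With the replicate number as a block, 12 were higher and 2 lower in siRif1 and 11 and 3 in siCon embryos, and 0 in the other comparisons; the numbers did not pair the embryos (median correlation of same-numbered deviations -0.06 to 0.02, and 0 to 2 of the pairs over 0.1 in each pair of groups). Depth limits Eif2ak2, Eif4ebp3, Eif4e1b, Eif4e3 and Eif5a2, whose counts were low.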
